A study of Homo sapiens with 6 samples.

Results

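The genes of 9 enzymes and enzyme subunits of the mitochondrial tricarboxylic acid (TCA) cycle were examined in RNA-seq libraries of Huh7, a human hepatocellular carcinoma cell line. They were chosen by name, as a named set of cycle enzymes (CS, IDH2, IDH3A, IDH3B, OGDH, SUCLG1, SUCLA2, FH and MDH2), and all 9 were found among the 27394 gene names of the deposited count table. The rule itself uses no measured value, but the set was chosen with earlier results of these data known. The knockdown cells carried a short hairpin RNA (shRNA) against CTSV, the gene of the lysosomal protease cathepsin V, and their genotype label is CTSV knockdown. The comparison cells carried a control shRNA and bear the genotype label WT. Each group has 3 libraries. Both groups were Huh7 cells grown in the same medium with serum. The labels do not give the number of shRNAs, whether a line is a clone, or whether the libraries stem from separate cultures. The p-values therefore rest on a spread between libraries that may be technical.

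The TCA cycle oxidises acetyl-CoA in the mitochondrial matrix. Citrate synthase joins it to oxaloacetate, isocitrate dehydrogenases and the alpha-ketoglutarate dehydrogenase complex then release carbon dioxide and make NADH, succinyl-CoA synthetase makes ATP or GTP, and succinate dehydrogenase, fumarase and malate dehydrogenase return the carbon to oxaloacetate. In hepatocytes the cycle also supplies intermediates for glucose, lipid and amino acid synthesis and takes up carbon from glutamine. All of its enzymes are encoded in the nucleus.

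Most of the 9 genes had lower mRNA in the CTSV shRNA libraries, by moderate amounts. IDH3A, IDH3B, IDH2, OGDH, FH and MDH2 fell, none rose, and CS, SUCLG1 and SUCLA2 were not called. The deepest falls were those of IDH3A and MDH2, with log2 fold changes of -0.51 and -0.44, that is 0.701 and 0.737 of the control level. The test was the quasi-likelihood test of edgeR, with p-values adjusted by Benjamini-Hochberg over the 15968 genes that passed the low-count filter, and the threshold was an adjusted p under 0.05. All 9 passed that filter. Positive fold changes mean a higher level with CTSV shRNA, and "rose" and "fell" refer to genes past the threshold. The count of 6 genes lower out of 9 stands against a background of 21.6% of all tested genes called lower, and 0 higher against 18.7%. Well-counted genes were called lower more often. Among the 6000 genes with a mean of at least 33.1 CPM, counts per 1000000 library counts, the lowest mean of the 9, 40.0% were lower and 19.1% higher. The median log2 fold change of the 9 was -0.20, that of all tested genes 0.02, and that of the 6000 better-counted genes -0.09.

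The libraries held 16280506 to 17930442 counts in the CTSV shRNA group and 16258803 to 18106207 in the control shRNA group. CTSV itself had 304, 264 and 296 counts in CTSV shRNA libraries and 755, 740 and 658 in control shRNA libraries, a log2 fold change of -1.34 (SE 0.0958). Mitochondrially encoded genes took 11.6% ± 0.208 of counts in CTSV shRNA libraries and 9.23% ± 0.245 in control shRNA libraries (SD, n = 3 each). With those genes left out of the totals and the fit, the same number of the 9 genes, 6, fell. All 10 hepatocyte markers examined had at least 5 CPM in every library. Their summed level was 33040 to 34215 CPM in CTSV shRNA and 26475 to 27401 CPM in control shRNA libraries, and most of it was ALB and AFP, which both rose. In all, 6 of the 10 rose, 1 fell (TTR, with a log2 fold change of -0.19) and 3 were not called (APOA1, APOA2 and FGB). Of 4 leukocyte markers 1, CD3E, was in the table, at no more than 0.424 CPM in any library. Of 5 stromal markers 4 were in the table and summed to 59.1 to 65.3 CPM in CTSV shRNA and 44.5 to 48.3 CPM in control shRNA libraries, mainly LUM and COL1A2, with COL1A1 under 1 CPM on average in both groups. Of 4 endothelial markers 1, PECAM1, was in the table, at 17.3 to 19.2 CPM in CTSV shRNA and 16.7 to 21.7 CPM in control shRNA libraries. The part of these differences in the results was not tested. In bulk RNA, less RNA per cell and fewer cells with the RNA cannot be told apart.

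Upstream sequence was available from RefSeq (GRCh38.p14) for 8 of the 9 genes. The window taken is the 250 bases before the RefSeq start, in gene sense. It is shown for the 2 genes in which a search motif was found among those that fell, and for the gene with the deepest fall, in which none was. Capitals mark matches on either strand to CCGGAAGT, a site of the GA-binding protein and other ETS factors.
MDH2, chr7:76047856-76048105, plus strand: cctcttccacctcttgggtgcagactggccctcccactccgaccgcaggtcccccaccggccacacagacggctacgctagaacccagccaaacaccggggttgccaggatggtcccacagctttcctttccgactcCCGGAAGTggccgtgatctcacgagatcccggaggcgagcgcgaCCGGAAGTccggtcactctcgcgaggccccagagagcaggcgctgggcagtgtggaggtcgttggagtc
IDH3B, chr20:2664217-2664466, minus strand: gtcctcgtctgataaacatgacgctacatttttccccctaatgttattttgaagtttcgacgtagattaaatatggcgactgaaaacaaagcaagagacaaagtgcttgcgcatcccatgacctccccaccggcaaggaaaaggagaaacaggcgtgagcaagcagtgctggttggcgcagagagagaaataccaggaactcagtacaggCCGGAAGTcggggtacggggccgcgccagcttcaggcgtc
IDH3A, chr15:78149112-78149361, plus strand: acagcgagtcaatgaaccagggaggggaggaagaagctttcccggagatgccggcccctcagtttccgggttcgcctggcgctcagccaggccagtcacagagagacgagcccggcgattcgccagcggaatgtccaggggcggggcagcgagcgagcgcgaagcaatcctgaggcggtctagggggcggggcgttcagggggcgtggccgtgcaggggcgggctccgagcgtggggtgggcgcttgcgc

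The MDH2 window holds 2 matches to CCGGAAGT and the IDH3B window 1, and 3.42% of all 35116 promoter windows of that length hold it. The estrogen-related receptor motif AAGGTCA was found in the SUCLA2 window only among the 8, and in 3.44% of all windows. The nuclear respiratory factor 1 motif core GCGCATGC, the E-box CACGTG and the cyclic AMP response element TGACGTCA were in none of the 8 windows, against 2.63%, 6.34% and 1.65% of all windows. No base lay in more than 1 motif. A match is only a match of letters in this window. The windows of IDH2, IDH3A and SUCLG1 lie inside the gene spans given below, so they are not upstream of the outermost start. The IDH3A window was 70.0% G or C, the MDH2 window 66.0% and the IDH3B window 51.6%, with a median of 58.0% over all windows.

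**Figure D1:**
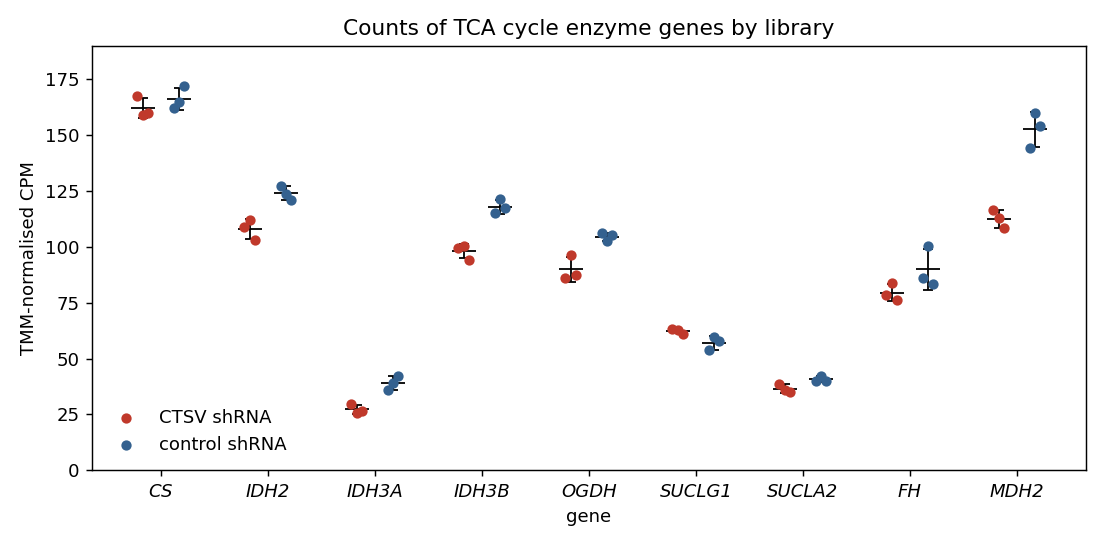
TMM-normalised CPM (vertical axis) of the 9 genes (horizontal axis) in the 3 CTSV shRNA libraries (red, left of each pair) and the 3 control shRNA libraries (blue, right). Each dot is 1 library, with the mean and SD as black bars. The groups do not overlap for IDH2, IDH3A, IDH3B, OGDH, SUCLG1, SUCLA2 and MDH2, and overlap for CS and FH.

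The gene of the entry enzyme, citrate synthase, was not called. CS lies on the minus strand of chromosome 12 (56271699 to 56300392 on hg38). It had 167.5, 159.1 and 160.0 CPM in CTSV shRNA libraries, against 162.1, 164.8 and 171.9 CPM in control shRNA libraries. The groups overlapped. The log2 fold change was -0.04, with a 95% interval of -0.14 to 0.07 (edgeR adjusted p = 0.613).

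All 3 isocitrate dehydrogenase genes among the 9 fell. IDH3A encodes the catalytic alpha subunit of the NAD-dependent enzyme and lies on the plus strand of chromosome 15 (78131498 to 78171949). It had 29.7, 25.7 and 26.5 CPM in CTSV shRNA libraries, against 35.8, 38.9 and 42.0 CPM in control shRNA libraries. Every CTSV shRNA library lay below every control library. The log2 fold change was -0.51 (SE 0.0919, edgeR adjusted p = 2.3e-05). Its 3′ exons share 2608 bases with those of ACSBG1 on the opposite strand, a gene with 10 to 18 counts in CTSV shRNA and 4 to 10 counts in control shRNA libraries, and strand use in counting is not stated.

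IDH3B, the beta subunit of the same enzyme, on the minus strand of chromosome 20 (2658395 to 2664219), had 99.5, 100.2 and 94.3 CPM in CTSV shRNA libraries, against 115.2, 121.4 and 117.6 CPM in control shRNA libraries. The groups were again apart, with a log2 fold change of -0.27 (SE 0.0563, edgeR adjusted p = 0.000191). IDH3G, the gamma subunit, was not called, at 14.3 ± 1.99 CPM in CTSV shRNA and 15.7 ± 3.04 CPM in control shRNA libraries (SD, n = 3 each), and its log2 fold change of -0.14 turned to 0.03 without control shRNA replicate 2.

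IDH2 encodes the NADP-dependent mitochondrial enzyme, which converts isocitrate and alpha-ketoglutarate and takes part in the NADPH supply of the matrix. It lies on the minus strand of chromosome 15 (90083045 to 90102504). It had 108.8, 112.0 and 103.1 CPM in CTSV shRNA libraries, against 127.4, 123.5 and 121.0 CPM in control shRNA libraries. The groups did not overlap, and the log2 fold change was -0.20 (SE 0.0556, edgeR adjusted p = 0.00374).

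OGDH, DLST and DLD, the genes of the alpha-ketoglutarate dehydrogenase complex, fell. OGDH, its E1 component, on the plus strand of chromosome 7 (44606572 to 44709066), had 86.1, 96.4 and 87.6 CPM in CTSV shRNA libraries, against 106.0, 102.5 and 105.2 CPM in control shRNA libraries. The second CTSV shRNA library was the highest of its group and still below each control library. The log2 fold change was -0.22 (SE 0.0594, edgeR adjusted p = 0.00341). DLST, the E2 component, fell with a log2 fold change of -0.15, and DLD, the E3 component that is shared with pyruvate dehydrogenase, with -0.28. The call of DLST was lost without control shRNA replicate 1 or 2 or CTSV shRNA replicate 1 or 2 (edgeR adjusted p = 0.0694, 0.0801, 0.106 and 0.079). OGDHL, a paralog of OGDH, rose at a low level, with 68, 47 and 58 counts in CTSV shRNA libraries against 32, 9 and 22 in control shRNA libraries and a log2 fold change of 1.44.

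Succinyl-CoA synthetase was not called in any subunit. SUCLG1, the alpha subunit common to both forms of the enzyme, lies on the minus strand of chromosome 2 (84423523 to 84460045). It had 63.1, 62.7 and 61.2 CPM in CTSV shRNA libraries, against 53.7, 59.6 and 57.7 CPM in control shRNA libraries. It was the only 1 of the 9 whose CTSV shRNA libraries all lay above the control libraries. Its log2 fold change was 0.13, with a 95% interval of -0.01 to 0.27 (edgeR adjusted p = 0.142). Without control shRNA replicate 1, its lowest library, the log2 fold change was 0.081.

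SUCLA2, the beta subunit of the ATP-forming enzyme, on the minus strand of chromosome 13 (47936491 to 48001354), had 38.7, 35.9 and 34.9 CPM in CTSV shRNA libraries, against 39.9, 42.4 and 40.1 CPM in control shRNA libraries. The CTSV shRNA libraries all lay below the control libraries. The log2 fold change was -0.16, with a 95% interval of -0.33 to 0.01 (edgeR adjusted p = 0.123). Length and GC offsets moved it to -0.29 and past the threshold (edgeR adjusted p = 0.00301). The same offsets moved the median of all tested genes from 0.02 to -0.06, so part of the shift is not particular to SUCLA2. SUCLG2, the beta subunit of the GTP-forming enzyme, was at 36.4 ± 0.943 CPM in CTSV shRNA and 37.3 ± 5.90 CPM in control shRNA libraries (SD, n = 3 each), with a log2 fold change of -0.03 that turned positive without control shRNA replicate 2 or 3 (0.02 and 0.04).

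FH and MDH2, the genes of the last steps from fumarate to oxaloacetate, fell. FH, fumarase, on the minus strand of chromosome 1 (241497603 to 241519761), had 78.7, 83.9 and 76.1 CPM in CTSV shRNA libraries, against 86.2, 100.4 and 83.3 CPM in control shRNA libraries. The groups overlapped, since the second CTSV shRNA library lay above the third control library. The log2 fold change was -0.18 (SE 0.0669, edgeR adjusted p = 0.0319). Without control shRNA replicate 2, the highest library, it was -0.10 and was not called (adjusted p = 0.28). The call was also lost without CTSV shRNA replicate 1 or 3 (edgeR adjusted p = 0.0658 and 0.13).

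MDH2, mitochondrial malate dehydrogenase, also works in the malate-aspartate shuttle. It lies on the plus strand of chromosome 7 (76048051 to 76067508). It had 116.4, 113.1 and 108.3 CPM in CTSV shRNA libraries, against 144.3, 159.8 and 154.1 CPM in control shRNA libraries. No library of either group came near the other group. The log2 fold change of -0.44 (SE 0.0553) had the smallest adjusted p of the 9, 4.1e-08 in edgeR.

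By separation of the libraries alone, 6 of the 9 genes were lower in every CTSV shRNA library than in every control library (25.0% of all tested genes) and 1, SUCLG1, was higher (24.1%). With DESeq2, 5 of the 9 were lower at an adjusted p under 0.05, against 20.3% of all genes it tested, and FH was not called (adjusted p = 0.0592). In the authors' deposited table, whose fold changes run control over knockdown, 5 of the 9 had an adjusted p under 0.05 and were lower in the knockdown, against 18.9% of the 16772 names with an adjusted p below 1. There FH had an adjusted p of 0.0569. The shares in this paragraph are not limited to well-counted genes. Among the 6000 better-counted genes edgeR called 40.0% lower, and the other shares were not computed for them.

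The summed level of the 9 genes was 788.6, 788.9 and 751.9 CPM in CTSV shRNA libraries, against 870.5, 913.3 and 892.9 CPM in control shRNA libraries. The means were 776.4 ± 21.3 CPM in CTSV shRNA and 892.2 ± 21.4 CPM in control shRNA libraries (SD, n = 3 each). Over the counts that are not mitochondrially encoded, the 9 genes took 0.0890% ± 0.00252 in CTSV shRNA libraries and 0.0967% ± 0.00226 in control shRNA libraries (SD, n = 3 each).

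**Figure D2:**
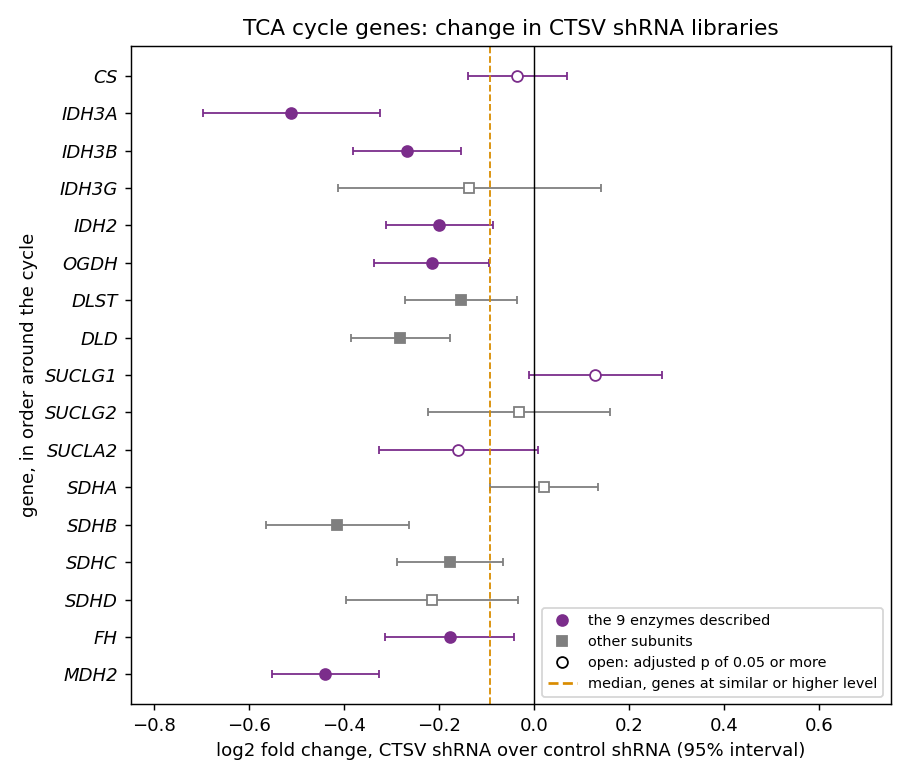
Log2 fold change of CTSV shRNA over control shRNA with its 95% interval (horizontal axis) in order around the cycle (vertical axis), for the 9 genes described, in purple, and 8 of the 10 other subunits, in grey. Filled symbols passed the edgeR test at an adjusted p under 0.05, and the dashed line is the median of the 6000 better-counted genes, -0.09. IDH3A, MDH2 and SDHB lie farthest to the left and SUCLG1 farthest to the right. OGDHL, at 1.44, is outside the plot and not drawn.

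Levels can be set beside each other between genes only per length. Per kilobase of the longest principal transcript in GENCODE v29, the highest of the 9 was IDH3B, at 63.4 ± 2.07 CPM per kb in CTSV shRNA and 76.4 ± 2.05 CPM per kb in control shRNA libraries (SD, n = 3 each). The lowest was IDH3A, at 6.61 ± 0.515 CPM per kb in CTSV shRNA and 9.43 ± 0.747 CPM per kb in control shRNA libraries. Its exons share 2608 bases with ACSBG1 on the opposite strand, and how reads there were counted is not stated. The level of IDH3A per kb, and the size of its ratios to other genes below, are therefore uncertain. In control shRNA libraries the order from high to low was IDH3B, MDH2, CS, FH, IDH2, SUCLG1, OGDH, SUCLA2 and IDH3A, and the libraries of CS and FH, and of FH and IDH2, overlapped. In CTSV shRNA libraries CS, at 54.5 ± 1.57 CPM per kb, stood above MDH2, at 51.0 ± 1.85 CPM per kb, with no overlap, and SUCLG1 stood above IDH2 with overlapping libraries. FH and SUCLG1 also overlapped there. The order depends on the length used. With the union of all annotated exons, IDH2 came second and MDH2 behind FH in control shRNA libraries, and SUCLA2, at 4.57 CPM per kb, stood below IDH3A, at 5.70 CPM per kb. For SUCLA2 the GENCODE v29 span, 47745736 to 48037968, is wider than the deposited span, 47936491 to 48001354. Its union can thus hold exons outside the counted gene.

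**Figure D3:**
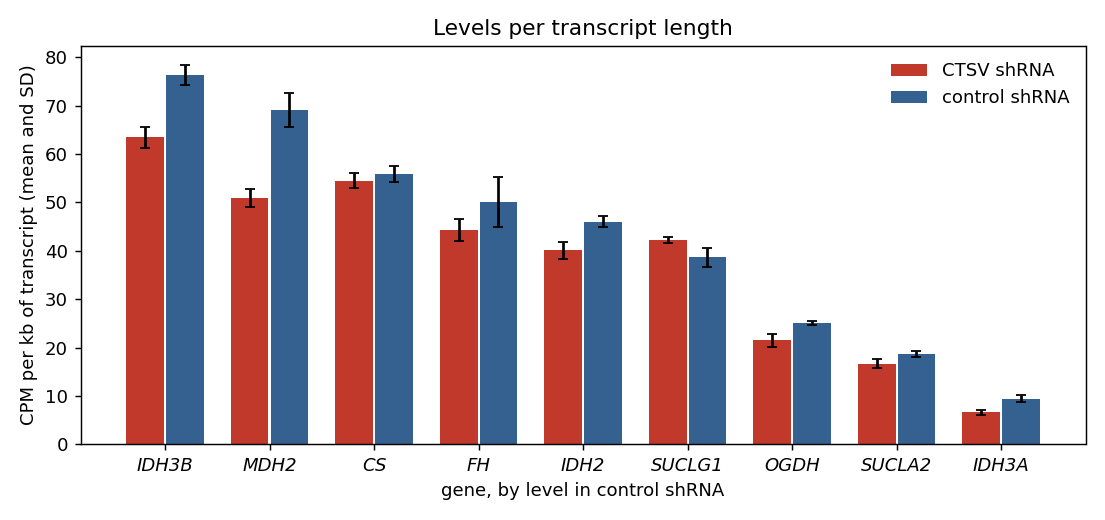
Mean level per kilobase of transcript (vertical axis, TMM-normalised CPM per kb, bars from 0) with the SD over 3 libraries, for CTSV shRNA (red, left) and control shRNA (blue, right). Genes run from left to right by their control level, from IDH3B at 76.4 to IDH3A at 9.43 CPM per kb. CS has nearly level bars and SUCLG1 a higher red than blue bar.

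Ratios between paired genes were taken within each library, so that they do not depend on the scaling of libraries. The pairs were chosen after the values had been seen. A total of 10 ratios were computed per length, each tested with an exact permutation test (two-sided). With 3 libraries a group its smallest p is 0.1, or 0.2 after Benjamini-Hochberg adjustment over the 10. None can therefore pass the threshold. How often ratios of other gene pairs are apart between the groups was not computed. Of all single tested genes, 25.0% were lower and 24.1% higher without overlap, so separation alone does not mark out these pairs. The ratio of MDH2 to CS, the enzymes that form and use oxaloacetate, was 0.935, 0.958 and 0.911 in CTSV shRNA libraries, against 1.20, 1.31 and 1.21 in control shRNA libraries. It was lower in all 3 CTSV shRNA libraries (exact permutation p = 0.1), by 0.40 on the log2 scale. The ratio of SUCLA2 to SUCLG1, the subunits of the ATP-forming synthetase, was 0.413, 0.385 and 0.384 in CTSV shRNA libraries, against 0.500, 0.479 and 0.467 in control shRNA libraries. This is a difference of -0.29 on the log2 scale, with no overlap of the groups (exact permutation p = 0.1). Within the NAD-dependent isocitrate dehydrogenase, the ratio of IDH3A to IDH3B was 0.112, 0.0959 and 0.105 in CTSV shRNA libraries, against 0.116, 0.120 and 0.134 in control shRNA libraries, again without overlap (exact permutation p = 0.1).

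Ratios of cytosolic to mitochondrial isoenzymes were also apart between the groups. The ratio of MDH1, cytosolic malate dehydrogenase, to MDH2 was 0.876, 0.965 and 1.02 in CTSV shRNA libraries, against 0.805, 0.749 and 0.848 in control shRNA libraries. The ratio of IDH1, the cytosolic NADP-dependent enzyme, to IDH2 was 11.0, 10.3 and 11.5 in CTSV shRNA libraries, against 9.49, 10.0 and 10.1 in control shRNA libraries. Both were higher in all 3 CTSV shRNA libraries, by 0.25 and 0.14 on the log2 scale (exact permutation p = 0.1 each). The other 5 ratios, among them DLST to OGDH with a log2 difference of 0.06, overlapped between the groups.

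**Figure D4:**
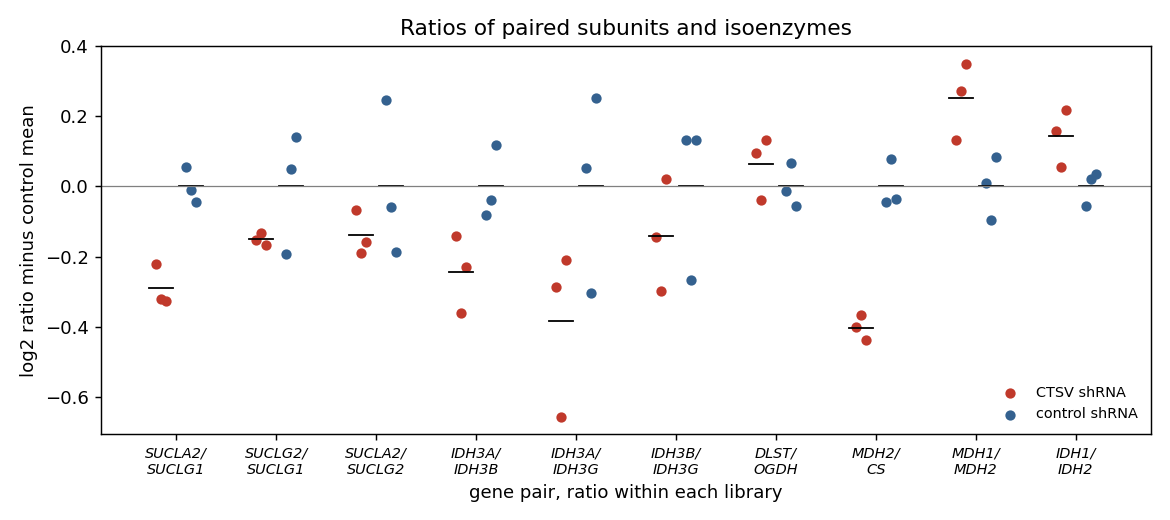
Ratio of paired genes within each library on the log2 scale, minus the control mean (vertical axis), for 10 gene pairs (horizontal axis). Dots are libraries of CTSV shRNA (red, left) and control shRNA (blue, right), and black lines are means. The red and blue dots are apart for SUCLA2/SUCLG1, IDH3A/IDH3B, MDH2/CS, MDH1/MDH2 and IDH1/IDH2.

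The counts of the gene groups that follow stand against the same background, 21.6% of all tested genes lower and 18.7% higher, or 40.0% and 19.1% among the 6000 better-counted genes. Each group also holds genes with means under 33.1 CPM, for which the better-counted genes are not a matched background. Of the 10 other subunits of the cycle, 4 fell (DLD, DLST, SDHB and SDHC), OGDHL rose and 5 were not called, with a median log2 fold change of -0.15. Succinate dehydrogenase, which is also respiratory complex II, had calls for some of its subunits. SDHB, the iron-sulfur subunit, had 43.5 ± 2.16 CPM in CTSV shRNA and 58.0 ± 1.86 CPM in control shRNA libraries (SD, n = 3 each) and fell with a log2 fold change of -0.42 (SE 0.0741). The membrane anchor gene SDHC fell with -0.18, a call lost without CTSV shRNA replicate 3 (edgeR adjusted p = 0.0555). The other anchor gene, SDHD, at -0.22, missed the threshold (edgeR adjusted p = 0.0521) and passed it without CTSV shRNA replicate 1 (0.0129), without control shRNA replicate 1 (0.0477) and with the replicate block (0.0486). The flavoprotein gene SDHA, at 0.02, was not called. Differences between subunits of this enzyme were not tested. Of 8 tested genes of succinate dehydrogenase assembly and lipoate attachment, 1 fell, the assembly factor gene SDHAF3 (-0.47), and 7 were not called. All 8 had means under 33.1 CPM, and low counts limit the precision of these genes.

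Of 12 tested genes of pyruvate entry, 3 rose and 2 fell, with a median log2 fold change of 0.05. This is near the 18.7% higher and 21.6% lower of all tested genes. Among the better-counted genes 19.1% were higher and 40.0% lower. DLAT, the E2 component of pyruvate dehydrogenase, fell (-0.55), as did PDHX, its E3-binding protein (-0.29). MPC1, a subunit of the mitochondrial pyruvate carrier, rose (0.45), and so did PDP1, a phosphatase that activates pyruvate dehydrogenase (0.73). MPC2, the other carrier subunit, rose by less (0.25), a call lost without CTSV shRNA replicate 2 (edgeR adjusted p = 0.0718) or control shRNA replicate 3 (0.182, with a log2 fold change of 0.15).

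Of 17 tested genes of anaplerosis, glutamine entry and exit of intermediates, which feed or drain the cycle, 9 fell and 1 rose, with a median log2 fold change of -0.17. Falls also outnumbered rises among the better-counted genes, at 40.0% lower and 19.1% higher. Over all tested genes 21.6% were lower and 18.7% higher. PCK2, mitochondrial phosphoenolpyruvate carboxykinase, had 43.2 ± 2.68 CPM in CTSV shRNA and 86.1 ± 5.62 CPM in control shRNA libraries (SD, n = 3 each) and fell with a log2 fold change of -0.99. The transaminase genes OAT (-0.57), GPT2 (-0.44) and GOT2 (-0.28) fell as well. The gene that rose was SLC25A1, the mitochondrial citrate carrier (0.19), a call lost without control shRNA replicate 1 or 3 or CTSV shRNA replicate 1 (edgeR adjusted p = 0.0789, 0.0732 and 0.0991). Of 8 cytosolic counterparts, 4 fell and 2 rose, with a median of -0.15. Malic enzyme ME1 (-0.34), the aspartate transaminase GOT1 (-0.33) and ATP citrate lyase ACLY (-0.17) fell, and ACSS2, which makes acetyl-CoA from acetate, rose (0.25). MDH1 fell (-0.19), a call lost without control shRNA replicate 3 or CTSV shRNA replicate 1 (edgeR adjusted p = 0.116 and 0.0838). The alanine transaminase GPT rose at a low level, with 45, 39 and 42 counts in CTSV shRNA libraries against 23, 6 and 21 in control shRNA libraries and a log2 fold change of 1.31, and was not called without control shRNA replicate 2 (edgeR adjusted p = 0.07).

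Of 11 tested branched-chain and propionate genes, which lead to succinyl-CoA, 5 rose and 1 fell, with a median log2 fold change of 0.17. The background was 18.7% higher and 21.6% lower over all tested genes, and 19.1% and 40.0% among the better-counted genes. PPM1K, the phosphatase of branched-chain ketoacid dehydrogenase, rose (0.72), as did DBT, its E2 component (0.31), and the epimerase gene MCEE (0.41, and 0.16 with length and GC offsets). The other 2 that rose were MUT, methylmalonyl-CoA mutase (0.21), and MMAB, which makes its cobalamin cofactor (0.17). The call of MUT was lost without control shRNA replicate 3 or CTSV shRNA replicate 2 or 3 (edgeR adjusted p = 0.129, 0.107 and 0.0548), and that of MMAB without control shRNA replicate 1 or 3 or CTSV shRNA replicate 1 or 2 (0.148, 0.124, 0.0657 and 0.227). With DESeq2, MMAB was not called either (adjusted p = 0.0511). PCCB, the beta subunit of propionyl-CoA carboxylase, fell (-0.49). Of 6 tested genes of side reactions of hydroxyglutarate and fumarate, 1 rose, the hydroxyacid-oxoacid transhydrogenase gene ADHFE1 (0.89), and 1 fell.

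Among 13 tested regulators of mitochondrial gene expression and number, 5 fell and 0 rose, with a median log2 fold change of -0.07. The falls are near the 40.0% lower, with a median of -0.09, of the better-counted genes, and above the 21.6% of all tested genes. Some of the 13, among them PPARGC1A, PPARGC1B and ESRRA, had means under 33.1 CPM. The better-counted genes are therefore not a matched background for the whole list. ESRRA, the estrogen-related receptor alpha, which activates many genes of oxidative metabolism, fell (-0.52). So did TFB2M (-0.51) and TFAM (-0.29), which act in transcription of mitochondrial DNA, and GABPB1, a subunit of the GA-binding protein (-0.28). PPARGC1B, the coactivator PGC-1 beta, also fell (-0.36), a call lost without control shRNA replicate 2 or CTSV shRNA replicate 1 or 3 (edgeR adjusted p = 0.0934, 0.0907 and 0.0815). The call of GABPB1 was lost without control shRNA replicate 1 (adjusted p = 0.0674) and without CTSV shRNA replicate 3 (0.0515). GABPA, the other subunit of the GA-binding protein, was not called, with overlapping groups and a log2 fold change of 0.11 (edgeR adjusted p = 0.292). A link of either gene to the matches in the MDH2 and IDH3B windows was not tested. PPARGC1A, the coactivator PGC-1 alpha, was not called, at 2.15 ± 0.678 CPM in CTSV shRNA and 1.93 ± 0.172 CPM in control shRNA libraries (SD, n = 3 each).

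Across the 6 libraries, the members followed their common profile to different degrees. Pearson's r of log2 CPM with the mean of the other 8 genes was 0.99 for IDH3B and MDH2 and 0.53 for CS, and -0.66 for SUCLG1. These values share the libraries and their scaling and are mostly the difference between groups, so they are given as a description. The genes outside the lists whose profiles over the 6 libraries were most like the mean of the 9 were MND1, a meiotic recombination gene, RPL8, a ribosomal protein gene of the large subunit, and KIF20A, a mitotic kinesin gene, each with r of 0.999 on the same scale. MND1 had 6.97 ± 0.539 CPM in CTSV shRNA and 10.1 ± 0.793 CPM in control shRNA libraries, and RPL8 had 463.3 ± 31.5 CPM in CTSV shRNA and 650.0 ± 47.3 CPM in control shRNA libraries (SD, n = 3 each).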

How the data were processed

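RNA-seq libraries of Huh7 cells, 3 with CTSV shRNA and 3 with control shRNA, were compared. The per-gene counts are whole numbers deposited by the authors without normalization. The submitters' processing notes name hg38 and the tools HISAT2, StringTie and SAMtools. Their versions, the counter, the annotation and strand use in counting are not given in the sources used. The kit was NEBNext Ultra II for mRNA, on TRIzol RNA, per the labels. The deposited log2 fold changes, p-values and adjusted p-values of the authors come from a tool not given there. Of 28915 rows, 1521 were identical copies of a gene name and were removed.

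edgeR 4.0.16 (R 4.3.3) was run with TMM, filterByExpr by group, quasi-likelihood tests and no covariate. The biological coefficient of variation of 6.87% and 3 libraries per group set the precision. CPM values are TMM-normalised. The procedure was tested on simulated data. GENCODE v29 gave transcript length and GC content for 99.7% of tested genes. Alternatives were RLE factors, 2 other filters, a replicate block, DESeq2 1.42.0, mitochondrial genes left out, loess offsets (span 0.5) for length and GC content, all rows kept, and each library left out. Named genes are the 9 members, CTSV, the other cycle subunits and 3 genes of most similar profile. Up to 4 called genes per list were named by adjusted p. The remaining genes of list counts of 5 or fewer, PPARGC1A, GABPA, IDH1 and the marker genes were named after their values were seen. Members and lists were chosen with earlier results of these data known. Some genes of the lists are counted but not reported by name here.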

Additional observations from a re-analysis of the deposited data

How the results depend on the processing

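The falls of IDH2, IDH3A, IDH3B, OGDH and MDH2 kept their direction and their call under all 14 alternatives, as did that of CTSV (log2 fold changes of -1.40 to -1.30 with 1 library left out). The number of the 9 genes that fell lay between 5 and 7, and 0 rose under any alternative. With 1 library left out 5 or 6 fell. Same-numbered libraries did not deviate together over all tested genes (correlations of -0.01, -0.003 and 0.02). These correlations weigh all genes alike, low counts included, so they cannot exclude a pairing by replicate number. With the replicate number as a block, 6 of the 9 fell, and 2996 genes rose and 3490 fell, against 2982 and 3451 without it. With length and GC offsets 2380 genes rose and 4621 fell, so the share of rises among called genes was 34.0% in place of 46.4%, and 7 of the 9 fell. SUCLA2 was also called with all deposited rows kept (edgeR adjusted p = 0.0426). The cause was not tested. Signs turned for genes that were not called. With 1 library left out, IDH3G ranged over -0.24 to 0.029, SUCLG2 over -0.17 to 0.043 and SDHA over -0.013 to 0.057. SDHA was also at -0.018 with length and GC offsets and -0.0099 with all rows kept. SDHD was called under 7 alternatives. List counts moved by over 1.5 times in 15 cases. With offsets, 5 pyruvate entry genes fell in place of 2, 3 branched-chain and propionate genes rose in place of 5 and 2 side-reaction genes fell in place of 1. There MPC2, MUT and MMAB were at 0.15, 0.10 and 0.086 and were not called (edgeR adjusted p = 0.125, 0.224 and 0.248). The 1 rise among anaplerosis genes was lost with all rows kept and in 3 fits without a library. Without CTSV shRNA replicate 3, 3 regulators fell in place of 5. The remaining moves were of 1 or 2 genes. Changes as small as that of CS lie within the intervals given, and low counts limit the precision for OGDHL, GPT and PPARGC1A.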
